A study of Mus musculus with 6 samples.

Results

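The 10 genes described here are mRNAs that mark mural cells, the cells wrapped around blood vessels, and they were chosen by name. They are 6 genes of pericytes (*Rgs5*, *Kcnj8*, *Abcc9*, *Cspg4*, *Pdgfrb* and *Mcam*) and 4 genes of the contractile apparatus of smooth muscle cells (*Acta2*, *Myh11*, *Tagln* and *Des*). All 10 were found among the 19270 genes of the deposited table. RNA came from mesenchymal tissue at the proximal end of mouse incisors, in 3 control and 3 mutant samples, and tamoxifen had been given at an age of 1 month, 4 days earlier. The mutants were Gli1-CreER;Arid1bfl/fl mice, in which tamoxifen switches on Cre recombinase in cells that express *Gli1* and their floxed *Arid1b* alleles are deleted. The control mice received tamoxifen too. The labels give their genotype as wild type and the methods as Arid1b fl/fl. Neither genotype holds the Cre line, so that the groups differ in the Cre line as well. The Cre line also acts in the epithelial lineage of the incisor, and whether mural cells lost *Arid1b* was not measured in these samples.

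Pericytes sit on capillaries within the basement membrane that they share with endothelial cells, and vascular smooth muscle cells form the muscular coat of arterioles and larger vessels. Endothelial cells release PDGF-B, which recruits mural cells through the receptor PDGFRB. Both cell types set vessel diameter, smooth muscle by a dense array of actin and myosin. The continuously growing incisor receives its vessels through a neurovascular bundle at the proximal end, and the GLI1+ mesenchymal stem cells lie around this bundle.

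For each gene the authors deposited 1 mean per group in a normalized signal. The sources used here do not give the normalization, and the signal was taken as not divided by gene length. Values of single mice were not analysed here, so the means carry no SD, no comparison below was tested, and a ratio larger than the spread between mice cannot be told from one that is not. A log2 ratio is the log2 of the mutant mean over the control mean, computed here from these means, and 1.5-fold is the size used to name genes. If the lowest value of each library is read as no reads, the libraries held between about 37100000 and 49600000 reads on these genes. In bulk samples, fewer cells of a type and less RNA per cell cannot be told apart. The targeted gene *Arid1b* had means of 97.6 in controls and 38.0 in mutants, a log2 ratio of -1.36. The sex of the mice is unlabelled, and sex-linked transcripts differed, with means of 3368 in controls and 813.8 in mutants for *Xist*, and of 65.3 for *Ddx3y* in the mutants against the lowest mean of the table in the controls. Differences in sex between the groups therefore cannot be told apart from genotype for any member.

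The pericyte genes were mostly lower and the contractile genes mostly higher in the mutants. Of the 6 pericyte genes 5 had a lower mean in the mutants, with a median log2 ratio of -0.25. Of the 4 contractile genes 3 had a higher mean, with a median of 0.33. Over all 19270 genes the median was 0.00, and 50.5% of them had the higher mean in the mutant group. The largest ratios were those of *Kcnj8*, which was 1.95-fold lower in the mutants, and *Tagln*, which was 1.83-fold higher. *Kcnj8* was the only member past 1.5-fold lower, whereas 5.8% of all genes and 0.912% of the 10311 genes with a mean over both groups of at least 10 were past it in that direction. *Tagln* was the only member past 1.5-fold higher, and this held for 7.37% of all genes and 2.15% of those with a mean of at least 10. The mean over both groups was at least 10 for 9 of the 10 members, all but *Des*.

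**Figure D1:**
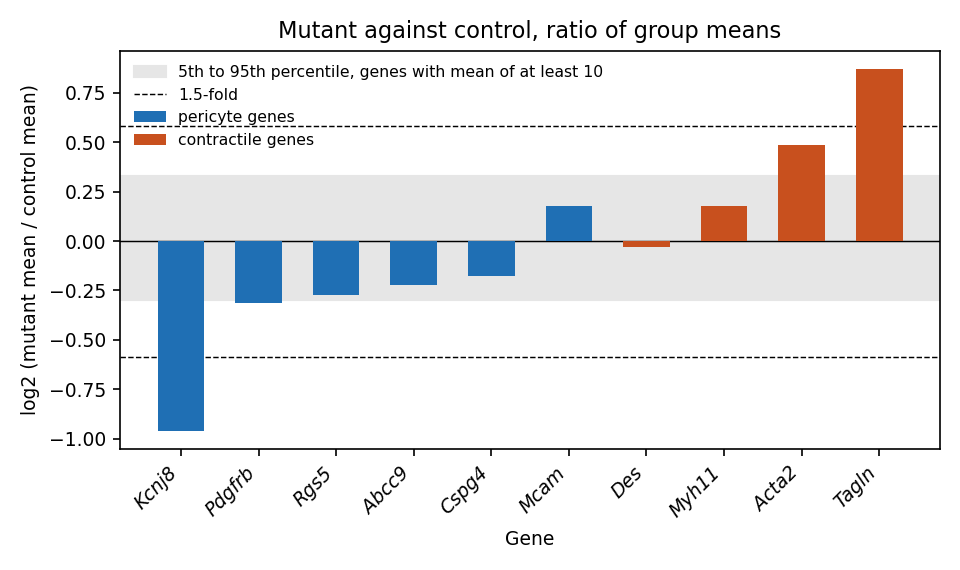
Bars give the log2 ratio of the mutant mean to the control mean for each of the 10 genes (y axis, log2 units), with pericyte genes in blue and contractile genes in orange; there are no error bars because the values are group means. *Kcnj8* at -0.96 and *Tagln* at 0.87 lie past the dashed 1.5-fold lines, and *Kcnj8*, *Pdgfrb*, *Acta2* and *Tagln* lie outside the grey band that holds the 5th to 95th percentile (-0.30 to 0.33) of genes with a mean of at least 10.

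Per length of exon the members differed widely in level. Each mean was divided by the exonic length of its gene in GENCODE vM21, which presumes a signal not already divided by length. The order below has no error from which neighbours could be separated. *Rgs5* was the most abundant at 90.4 per kb in the controls, followed by *Pdgfrb* at 32.3, *Acta2* at 28.8, *Mcam* at 15.5 and *Tagln* at 14.2. *Abcc9* at 9.33, *Kcnj8* at 8.43, *Cspg4* at 5.64 and *Myh11* at 2.71 per kb came next, and *Des* was lowest at 0.113. In the mutants *Rgs5* was still first at 74.8 per kb. *Acta2* at 40.5 and *Tagln* at 26.1 stood above *Pdgfrb* at 26.0 in the mutants, whereas in the controls both were below it. *Kcnj8* at 4.33 per kb stood below *Cspg4* at 4.998 in the mutants and above it in the controls. The level of *Acta2* per kb was 0.319 times that of *Rgs5* in the controls and 0.541 times in the mutants.

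**Figure D2:**
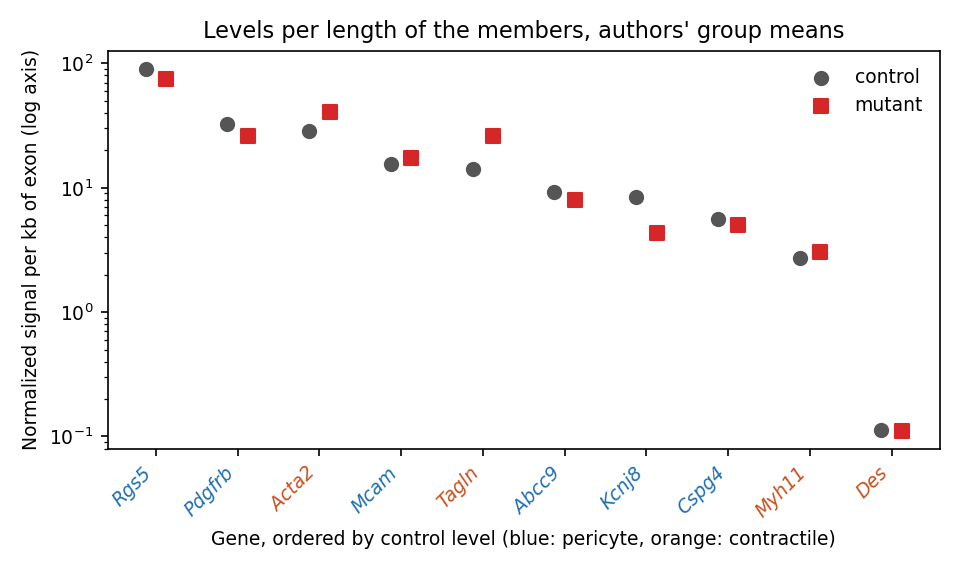
Points give the authors' group mean per kb of exon for each gene (y axis, normalized signal per kb, log axis), with circles for controls and squares for mutants and the genes ordered by their control level. *Rgs5* is highest in both groups and *Des* lowest, and the largest gaps between a circle and its square are those of *Kcnj8* (8.43 and 4.33) and *Tagln* (14.2 and 26.1).

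*Kcnj8* and *Abcc9* encode the parts of 1 channel. *Kcnj8* encodes Kir6.1, the pore of the vascular ATP-sensitive potassium channel, and *Abcc9* encodes SUR2, its regulatory subunit. The 2 genes are neighbors on the minus strand of chromosome 6 of GRCm38, at 142564837 to 142571614 for *Kcnj8* and 142587862 to 142702315 for *Abcc9*, with 16247 bases between them. The authors' mean of *Kcnj8* was 21.5 in controls and 11.03 in mutants, a log2 ratio of -0.96, and 0.252% of genes with a mean of at least 10 had a lower ratio. Read as reads, these means would be about 829 and 477 in a library. The mean of *Abcc9* was 78.1 in controls and 66.8 in mutants, a log2 ratio of -0.22. Per kb of exon the pore subunit stood at 0.903 times the regulatory subunit in the controls and at 0.542 times in the mutants, and the ratio of the pore subunit was the lower. Of the other subunits, *Kcnj11*, the pore of the channel in pancreatic islets, had means of 0.112 in controls and 0.162 in mutants, about 3.34 and 6.04 reads in a library. *Abcc8* was not analysed here.

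*Rgs5* encodes a regulator of G protein signaling that shortens the response of mural cells to vasoconstrictors, and its mRNA is among the most abundant markers of pericytes. Its authors' mean was 411.0 in controls and 340.1 in mutants, a log2 ratio of -0.27, and it ranked 304 by mean among all genes. It made up 50.1% of the summed pericyte signal in the mutants and 51.0% in the controls. The gene lies on chromosome 1 from 169655501 to 169695813. *Cspg4*, which encodes the NG2 proteoglycan of the pericyte surface, had means of 67.3 in controls and 59.6 in mutants, a log2 ratio of -0.17, and lies on chromosome 9 from 56865033 to 56899870. Many genes had lower ratios than either, as 5.95% of genes with a mean of at least 10 lay below *Rgs5* and 11.9% below *Cspg4*.

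*Pdgfrb* encodes the receptor through which PDGF-B recruits pericytes, and fibroblasts express it as well. The authors' mean was 176.8 in controls and 142.5 in mutants, a log2 ratio of -0.31, with 4.61% of genes of a mean of at least 10 below it. Of the 7 PDGF ligands and receptors 5 had a lower mean in the mutants, none was past 1.5-fold in either direction, and the median log2 ratio was -0.13. The log2 ratio was -0.23 for *Pdgfb*, the endothelial ligand of this receptor, -0.13 for *Pdgfd* and -0.20 for the mesenchymal receptor *Pdgfra*. It was 0.13 for *Pdgfa*, 0.09 for *Pdgfc* and -0.09 for *Pdgfrl*. The ligand and its receptor were thus both lower in the mutants, by less than 1.5-fold.

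*Mcam* was the pericyte gene that went the other way. It encodes the adhesion molecule CD146, which endothelial cells carry too, and lies on chromosome 9 from 44134469 to 44142727. Its authors' mean was 51.8 in controls and 58.6 in mutants, a log2 ratio of 0.18.

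Among the contractile genes, *Tagln* and *Acta2* had the highest ratios. *Tagln* encodes transgelin (SM22), an actin-binding protein of smooth muscle, and lies on the minus strand of chromosome 9 from 45929619 to 45936058. Its authors' mean was 28.3 in controls and 51.8 in mutants, a log2 ratio of 0.87, with 0.960% of genes of a mean of at least 10 above it. *Acta2*, on chromosome 19 from 34241090 to 34255590, encodes smooth muscle α-actin, and its mean was 63.4 in controls and 88.9 in mutants, a log2 ratio of 0.49. The share of genes above *Acta2* was 2.81%, and its ratio of 1.40 was under 1.5-fold. Both transcripts are also made by activated fibroblasts.

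The remaining contractile members were *Myh11* and *Des*. *Myh11* encodes smooth muscle myosin heavy chain, which mature smooth muscle cells make, and lies on chromosome 16 from 14194535 to 14291372. Its authors' mean was 20.6 in controls and 23.3 in mutants, a log2 ratio of 0.18, the same as that of *Mcam*. *Des* encodes desmin, the intermediate filament of muscle cells, and lies on chromosome 1 from 75360329 to 75368579. Its mean was 0.425 in controls and 0.416 in mutants, a log2 ratio of -0.03 at about 15.4 and 17.0 reads in a library, so that a difference of moderate size was not detectable at this depth. The mRNA of *Des* was therefore nearly absent from both groups. The ratios of *Tagln* and *Myh11* lay 0.69 apart on the log2 scale, although both encode parts of the same contractile machinery.

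**Figure D3:**
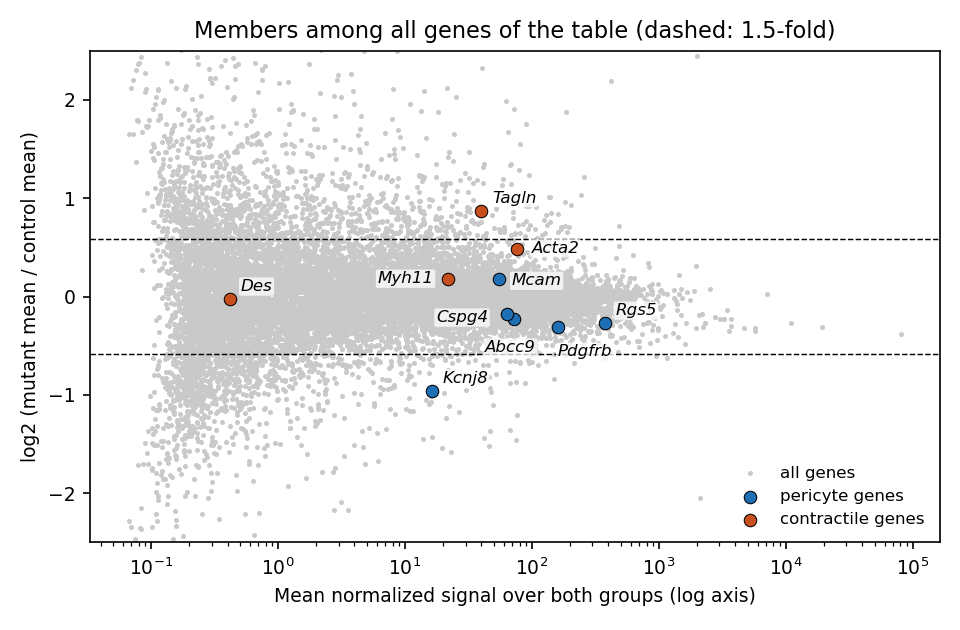
Each grey point is 1 of the 19270 genes, with its mean normalized signal over both groups (x axis, log axis) and its log2 ratio of mutant to control mean (y axis); 83 genes lie outside the y axis, which ends at 2.5 on either side. The members are named, and *Kcnj8* and *Tagln* lie at the edge of the cloud for their level, whereas *Des* sits at a mean of 0.420, where the cloud is wide.

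The pericyte genes and the contractile genes were compared with each other as the 2 faces of the mural lineage. The median of the pericyte genes lay 0.58 below that of the contractile genes on the log2 scale. In 23 of the 24 pairs of 1 pericyte gene and 1 contractile gene, the contractile gene had the higher ratio, and in the remaining pair *Mcam* stood above *Des*. These 23 include *Mcam* and *Myh11*, which were all but tied, with a log2 difference of -2.54e-05 for *Mcam* minus *Myh11*. Pairs with *Des* are also among the 23, although at about 15.4 and 17.0 reads in a library a difference of moderate size was not detectable for it. The pairs share genes and libraries and carry no test. The summed signal of the 6 pericyte genes was 806.4 in controls and 678.7 in mutants, and that of the 4 contractile genes was 112.7 and 164.4. Without *Acta2*, or without *Tagln*, the contractile median was 0.18, so that its size rested on these 2 genes.

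Further genes of both cell types were read from lists in which the members were left out. Of 17 further pericyte genes in the table, 12 had a lower mean in the mutants, with a median log2 ratio of -0.17 and a mean of only -0.08. None was past 1.5-fold, beside 5.8% of all genes lower and 7.37% higher. Of the 17, those with a mean of at least 10 numbered 10, of which 7 were lower, with a median of -0.21. The list did not hold *Rgs4*, which is also found in mural cells and had a log2 ratio of 0.72. *Cd248*, encoding endosialin, was the most abundant of the list and had means of 166.4 in controls and 175.9 in mutants, a log2 ratio of 0.08. Chosen after their values were seen, *Notch3*, the Notch receptor of mural cells, had a log2 ratio of -0.22, its target *Heyl* -0.34, and *Cox4i2*, an oxygen-regulated subunit of cytochrome c oxidase, -0.45. In the other direction, *Foxf2*, a forkhead factor of brain pericytes, had 0.30 and *Angpt1*, a ligand of the endothelial receptor TIE2, 0.14, and *Steap4* and *P2ry14*, with means under 10, both had 0.43. *Ndufa4l2* and *Higd1b*, markers often used for pericytes, had control means of only 2.58 and 0.217.

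Of 24 further contractile genes, 13 had a higher and 11 a lower mean in the mutants, with a median log2 ratio of 0.04 and a mean of 0.08. Over the whole list the median was thus near that of all genes, unlike that of the 4 contractile members. Those with a mean of at least 10 numbered 11, of which 7 were higher, with a median of 0.08. The upper quartile of the log2 ratios of all genes at this level was also 0.08. *Myl9*, the regulatory light chain of smooth muscle and non-muscle myosin, was the only gene of this list with a mean of at least 10 that was past 1.5-fold, with means of 62.3 in controls and 97.6 in mutants, a log2 ratio of 0.65. *Ppp1r12b*, a subunit of myosin phosphatase and the most abundant gene of the list, had a log2 ratio of -0.22. *Cnn1*, encoding the smooth muscle protein calponin, had means of 2.18 in controls and 4.76 in mutants, a log2 ratio of 1.13, and *Mylk*, the kinase of the light chain, had -0.30. These 2 were chosen after their values were seen. Of 7 transcription factors of the smooth muscle program none was past 1.5-fold, and their median was -0.04. The most abundant of them was the mesenchymal factor *Prrx1*, with a log2 ratio of 0.07. *Srf* and its partner *Myocd*, also named after their values were seen, had log2 ratios of 0.16 and -0.12, the latter at a control mean of only 1.12.

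Serum response factor binds the CArG box, a pair of C and a pair of G around 6 bases that are mostly A and T, and drives many contractile genes. Boxes with at least 5 A or T among the 6 middle bases, a pattern that reads the same way on either strand, were searched on both strands in the RefSeq promoters of GRCm38.p6, from 250 bases before to 50 after the start site. Promoters of 7 of the 10 members were searched, and those of *Pdgfrb*, *Myh11* and *Tagln* were not. Of these 7, *Acta2* alone held such a box, with 2 of them. Of 22 further contractile genes 5 held one in any of their promoters, and of 10 further pericyte genes none did. A box was found in 9.21% of the 16185 promoters searched, which belong to 12719 measured genes. This share counts promoters and the list counts are of genes, so they are not in the same unit. A box with A or T at all 6 positions was found in 1.35% of these promoters. The boxes before the start site of *Acta2* and *Myl9*, which after *Tagln* were the contractile genes with the highest ratios at a mean of at least 10, are shown with 10 bases on each side and the box in capitals.
Acta2 at 84 bases before the start: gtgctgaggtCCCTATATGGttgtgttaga
Acta2 at 34 bases before the start: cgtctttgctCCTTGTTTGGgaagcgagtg
Myl9 at 161 bases before the start: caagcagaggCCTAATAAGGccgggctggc
Myl9 at 99 bases before the start: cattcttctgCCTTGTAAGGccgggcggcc

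The stretches of *Acta2* lie on the minus strand at chr19:34255438-34255467 and chr19:34255388-34255417, and those of *Myl9* on the plus strand at chr2:156775293-156775322 and chr2:156775355-156775384. In GENCODE vM21 an exon of *Acta2* that starts further upstream covers both of its boxes, and no exon covers those of *Myl9*. The log2 ratio was 0.49 for *Acta2* and 0.65 for *Myl9*, the genes with 2 boxes that are shown. For the other 4 contractile genes of the list with a box, it was 0.11 for *Vcl*, 0.07 for *Cnn2*, 0.01 for *Pdlim3* and -0.23 for *Synm*. Whether the boxes bear on these ratios was not tested. The E-box CANNTG, which can lie within a CArG box that holds 1 other base, was found in 6 of the 7 member promoters and in 65.2% of all promoters searched.

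Actins and myosins are families whose members share sequence. Of the other muscle actins, *Acta1* of skeletal muscle had means of 2.5003 in controls and 1.12 in mutants, and *Actg2* of visceral smooth muscle 3.85 and 3.09. Both were low beside *Acta2*, and both ratios lay below 1 where that of *Acta2* lay above. *Actc1* was not analysed here. Of the conventional myosin heavy chains, the non-muscle chains *Myh9*, *Myh10* and *Myh14* had mutant means of 473.4, 279.1 and 100.03 and log2 ratios of 0.05, 0.13 and -0.01, beside 0.18 for *Myh11*.

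Other genes lie on the opposite strand across *Tagln*, *Mcam*, *Abcc9* and *Des*, and the sources used here do not say whether reads were counted by strand. *Pcsk7* shares 108 exonic bases with *Tagln*, 5.43% of its exonic length. The mean of *Pcsk7* was 24.1 in controls and 23.4 in mutants, a log2 ratio of -0.04 beside 0.87 for *Tagln*.

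Markers of other cell types in the tissue were read beside the members. The 16 endothelial markers had a median log2 ratio of 0.01 and a summed signal of 708.4 in controls and 737.2 in mutants, with none past 1.5-fold. The most abundant, *Cdh5*, which encodes VE-cadherin, had a log2 ratio of -0.01. The endothelial median thus lay near 0 and the pericyte median at -0.25, a difference that was not tested. Of the 10 fibroblast markers 8 had a lower mean in the mutants, with a median of -0.26 and a mean log2 ratio of -0.15, beside a median of -0.25 and a mean of -0.29 for the pericyte members. Their summed signal was 31169 in controls and 26075 in mutants, most of it from *Col1a1*, the chain of type I collagen, at a log2 ratio of -0.31. The 10 macrophage markers had a median of 0.16 with 9 of 10 higher, and *Lyz2*, the most abundant, had 0.07. The 11 Schwann cell markers had a median of -0.05 and a mean of 0.05, which differ in sign, and *Pmp22*, the most abundant, had -0.05.

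**Figure D4:**
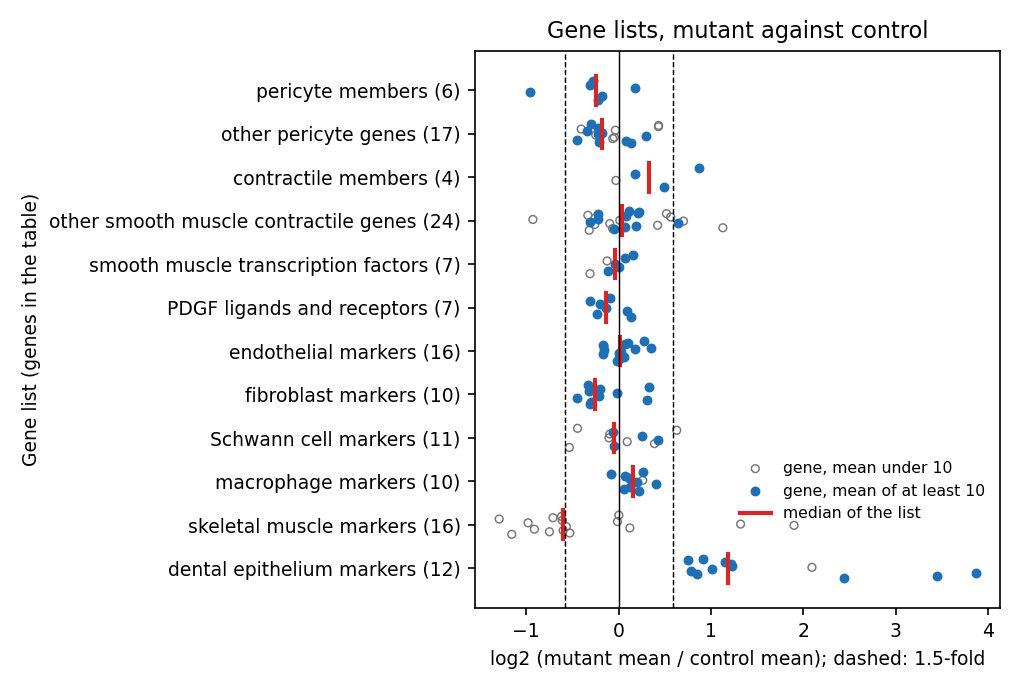
Each point is a gene of a list and gives its log2 ratio of mutant to control mean (x axis), filled for a mean of at least 10 over both groups and open below it, and red bars give list medians. The pericyte medians lie left of 0 at -0.25 and -0.17, the contractile median at 0.33, the endothelial median at 0.01, and the dental epithelium markers all lie past the right dashed 1.5-fold line.

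The 12 markers of dental epithelium were all past 1.5-fold in the higher direction. Their median log2 ratio was 1.18, and they had a summed signal of 10580 in mutants against 1751 in controls. Those with a mean of at least 10 included the keratins *Krt5*, *Krt14* and *Krt17*, *Cdh1*, *Epcam*, *Trp63*, *Shh* and the enamel matrix genes *Ambn*, *Enam* and *Amelx*, the last being the most abundant. None of them was at 0 in the controls, where the lowest mean was 1.48, and their part in the ratios of the contractile genes was not tested. The 16 skeletal muscle markers, which bear on *Des* and the actins, summed to 15.4 in controls and 11.9 in mutants, and the highest mean among them was 3.27, that of *Neb* in the controls. Of these 16 genes, 9 were past 1.5-fold lower and 2 past it higher, beside 5.8% and 7.37% of all genes. None of the 16 had a mean over both groups of at least 10, and the ratios of low genes spread more widely.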

How the data were processed

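The submitters' notes name TopHat2 2.0.8 and mm10, and the methods state that reads were trimmed, aligned to mm10 and compared in Partek Flow; counting, annotation, strand and normalization are not given in the sources used here. The deposited table holds for each gene the authors' mean normalized signal of each group, which was used, and the p-values, FDR, ratio and fold change of their own comparison, which were not. A deposited summary gives the lowest value, mean, median and upper quartile of the signal per library; 3 further columns of it were not used. The upper quartiles lay between 44.57 and 44.58, and the lowest group means equalled the mean of the library minima, so the lowest value was read as no reads. Of the means within 5 reads of it, 23 of 53 control and 17 of 46 mutant values fell on whole reads (tolerance 1e-05), so read numbers are approximate.

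From the means, log2 ratios (no pseudocount), list medians, counts past 1.5-fold and percentiles over all genes were computed with Python 3.11.15, numpy 2.4.6 and pandas 2.3.3. The code for the log2 ratios and the counts was checked on planted folds without noise, and the box search on a planted box. Tests across mice planned for values per sample could not be run, and no error of a ratio was computed. Positions and exonic lengths are from GENCODE vM21 on GRCm38 (mm10), in which all 149 list genes in the table matched 1 gene. The 10 members and 16 lists were chosen with earlier results of these data known. Named genes were the members, *Arid1b*, every measured gene of the channel subunits, PDGF ligands and receptors, muscle actins and myosin heavy chains, the most abundant gene of each list and genes past 1.5-fold with a mean of at least 10; the text says where others were chosen later, and *Pcsk7*, *Xist*, *Ddx3y*, *Ndufa4l2*, *Higd1b* and genes with a CArG box, and *Foxf2*, *Angpt1*, *Steap4* and *P2ry14*, were also named after their values were seen. A gene that this rule would also name is not reported here. Alternatives were a filter on the mean, a pseudocount of 1, subtraction of the lowest mean, centring, the mean of a list, other folds, and lists without *Des*, without *Acta2* or, added after the data were seen, without each member in turn.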

Additional observations from a re-analysis of the deposited data

How the results depend on the processing

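No paired analysis was possible because values of single libraries were not at hand for each gene, and for the same reason leaving out each replicate, a replicate block and a test across mice were not run. Each of the 10 member log2 ratios stayed within 0.1 under the 3 alternatives run for it: 1 added to both means, the lowest mean subtracted, and centring. The pericyte median stayed within 0.1 of its value under each alternative run, including the removal of each gene in turn, which was added after the data were seen. The contractile median was 0.49 at a mean of 10 or more, without *Des* or without *Myh11*, and 0.18 without *Acta2* or without *Tagln*, and the difference between the medians was -0.74 at a mean of 10 or more. Where a mean 25% above the other counted as past the fold, 2 members were past it higher in the mutants (*Acta2* and *Tagln*), and at a fold of 2 there were 0 in either direction. Over all genes, 2627 were past this looser fold higher and 2475 lower, and 583 and 413 past a fold of 2. With a mean of at least 10, 222 were past 1.5-fold higher and 94 lower, and with 1 added to both means 470 and 188; these follow from fewer genes, or from smaller ratios of low genes. Of 69 values for the 14 other lists, 60 stayed within 0.1 and 9 moved by more, among them the median of the muscle actins, from -0.32 to 0.49 where *Acta2* alone passed the filter, and that of the Schwann cell markers, from -0.05 to 0.10. The mean of the further pericyte genes was -0.08 where their median was -0.17.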

Other observations

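The measured genes of the R4 family, to which *Rgs5* belongs, had ratios in both directions. *Rgs4*, which lies 45663 bases from *Rgs5* on chromosome 1 and is also found in mural cells, had authors' means of 15.1 in controls and 24.8 in mutants, a log2 ratio of 0.72, past 1.5-fold higher, where *Rgs5* had -0.27. Of the 8 R4 family genes that were measured, a higher mutant mean was found for 6, of which 4 had means under 10. At a mean of at least 10 there were 4 genes of the family, 2 higher and 2 lower, with a median of 0.03, among which *Rgs2* had a log2 ratio of 0.33 and *Rgs3* -0.39. *Rgs2* and *Rgs3* were chosen after their values were seen.

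The neighborhood of *Kcnj8* and *Abcc9* was read after their values were seen. Within 500 kb on either side, 8 other genes had a mean of at least 10, with log2 ratios from -0.57 for *Ldhb*, a subunit of lactate dehydrogenase, to 0.04 for *C2cd5*, and none was past 1.5-fold. *Kcnj8*, at -0.96, had the lowest ratio among those at a mean of 10 or more in this stretch.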
